A study of Rattus norvegicus with 9 samples.

Results

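The proteasome genes were taken from the deposited table as the protein-coding rows whose symbol is Psm, then a letter from a to g, then a digit. The rule found 50 of 34463 genes, and 48 of them had a mean of at least 0.5 FPKM and were among the 16159 genes tested. The RNA came from mPFC tissue of SD rats. Each of 3 groups had 3 libraries: Veh, given vehicle only, Veh + CMS, exposed to chronic mild stress (CMS), and PHL + CMS, exposed to CMS and given phloretin (PHL), an apple dihydrochalcone. The study worked in vivo with male rats, 20 mg/kg PHL from 2 weeks before CMS and 3 weeks of randomised stressors, and no sequenced group received PHL without CMS. The labels do not say whether the libraries of a group came from separate animals, so p-values measure only the spread between these samples, which may be technical. The authors gave FPKM, fragments scaled to gene length and library size, which allows levels of different genes to be set beside each other per length.

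The proteasome is the protease that degrades proteins tagged with ubiquitin, and in neurons it is known for its part in synaptic protein turnover. Its 20S core is a barrel of alpha and beta rings whose subunits beta1, beta2 and beta5, encoded by Psmb6, Psmb7 and Psmb5, cut the substrate. The 19S cap binds ubiquitin chains, removes them, and unfolds the substrate with a ring of ATPases. In cells under interferon, and in microglia, Psmb9, Psmb10 and Psmb8 can take the places of the constitutive catalytic subunits to form the immunoproteasome, and PA28 (Psme1 with Psme2, or Psme3 alone) or PA200 (Psme4) can cap the core instead of 19S. NRF1, encoded by Nfe2l1, is known to raise transcription of proteasome genes through antioxidant response elements when proteolysis is short.

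The levels of 8 functional groups spanned from core subunits at over 100 FPKM to rows with almost no reads. Among the alpha ring genes, which gate the core, Psma7 was highest at a mean of 130.0 FPKM over the 9 libraries and Psma8, a testis subunit, lowest at 0.129 FPKM. Psma8 had 0 to 9 reads and was not tested. Of the constitutive beta genes Psmb4, a structural subunit, had 202 FPKM and Psmb7 60.1 FPKM. The ATPase ring ran from 43.2 FPKM (Psmc6) to 159.7 FPKM (Psmc5), and the 11 non-ATPase subunits of the cap from 28.5 FPKM (Psmd11) to 86.9 FPKM (Psmd6). The chaperones that build the cap were lower, with 19.96 FPKM for Psmd9 and 3.84 FPKM for Psmd10. The core chaperones lay between 12.2 FPKM (Psmg2) and 33.9 FPKM (Psmg3). The FPKM depended on the gene model, since Psma4 stood at only 20.02 FPKM with a model of 3909 bases, while its 1025 to 1431 reads were like the 944 to 1396 reads of Psma1, whose model has 1174 bases and which stood at 63.6 FPKM.

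Not every matched row encodes a subunit. Psmc3ip is a partner of meiotic recombinases (4.84 FPKM) and Psme3ip1 binds the PA28 gamma activator (23.8 FPKM), and the counts over all members are also given without these 2 rows. Psma3 was not analysed here, and Psma3l, the row nearest to it in name, stood at 35.4 FPKM. Psme1 had only 0 to 5 reads (mean 0.139 FPKM) and was not tested, although its partner Psme2 stood at 15.7 FPKM. A row annotated as a copy of Psme1, AABR07028009.1, had a mean of 0.585 FPKM, Psme1 shares 2574 bases with Emc9 on the opposite strand (4.94 FPKM), and the sources used here give neither the use of strand in counting nor the treatment of reads that match several copies. The level of Psme1 is therefore uncertain. For the same reason Psmb7, which shares 17494 bases of gene span with Nek6 on the opposite strand (12.5 FPKM), Psmb6, which has a copy LOC100360846 (1.36 FPKM), and Psma3l, with a copy LOC100361067 (0.876 FPKM), are reported with that limit.

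After CMS, proteasome genes as a group lay slightly below their Veh levels. Of the 48 tested genes 44 had a log2 fold change below 0 in Veh + CMS against Veh, with a median of -0.17 against a median of -0.02 over all genes tested, where 52.5% lay below 0. Among protein-coding genes with a mean of at least 20 FPKM, 69.8% lay below 0. Of genes matched by symbol as mitochondrial ribosomal proteins 93.2% lay below 0, and of those matched as respiratory chain genes 93.9%. No proteasome gene passed an adjusted p of 0.05 in limma (Benjamini-Hochberg over all 16159 genes), a rule that 3.79% of all genes passed (1.14% as lower), and the lowest adjusted p was 0.0585, for Psmc3. At an unadjusted p under 0.05, 19 genes were lower and 1, Psme4, higher, beside 11.3% of all genes lower and 10.9% higher. The 3 Veh + CMS libraries lay below all 3 Veh libraries in 24 of the 48 genes and above them in 1 gene, beside 13.5% and 14.1% of all genes. Among the 4131 protein-coding genes with a mean of at least 20 FPKM they lay below in 1207 and above in 434. Without Psmc3ip and Psme3ip1, 43 of 46 genes lay below 0, with the same numbers of calls and of groups that did not overlap. The fit is sensitive to scaling, since quantile normalization left 6 calls in place of 20, while voom on the recovered reads gave 20, with 0 past the adjusted p. In tissue RNA, fewer cells of a type and less RNA per cell cannot be told apart.

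The core and the cap shared the direction. All 14 tested genes of the constitutive 20S core lay below 0 in Veh + CMS against Veh, with a median of -0.21, and 9 of them were lower at an unadjusted p under 0.05. All 17 genes of the 19S cap lay below 0, with a median of -0.19 and 8 lower at that p. Over all genes tested 52.5% lay below 0 and 11.3% were lower at that p. Among protein-coding genes with a mean of at least 20 FPKM these shares were 69.8% and 26.3%. Summed over the 20S genes, the FPKM of the Veh libraries were 1418, 1484 and 1480.0, those of the Veh + CMS libraries 1299.5, 1228 and 1264, and those of the PHL + CMS libraries 1299, 1189.9 and 1252. Every CMS library, with or without PHL, thus had a smaller 20S sum than every Veh library. The 19S sums were 1321, 1286 and 1233 in Veh, 1149.75, 1064 and 1142 in Veh + CMS, and 1177, 1146 and 1211 in PHL + CMS. Again no library of the CMS groups reached the lowest Veh library.

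**Figure D1:**
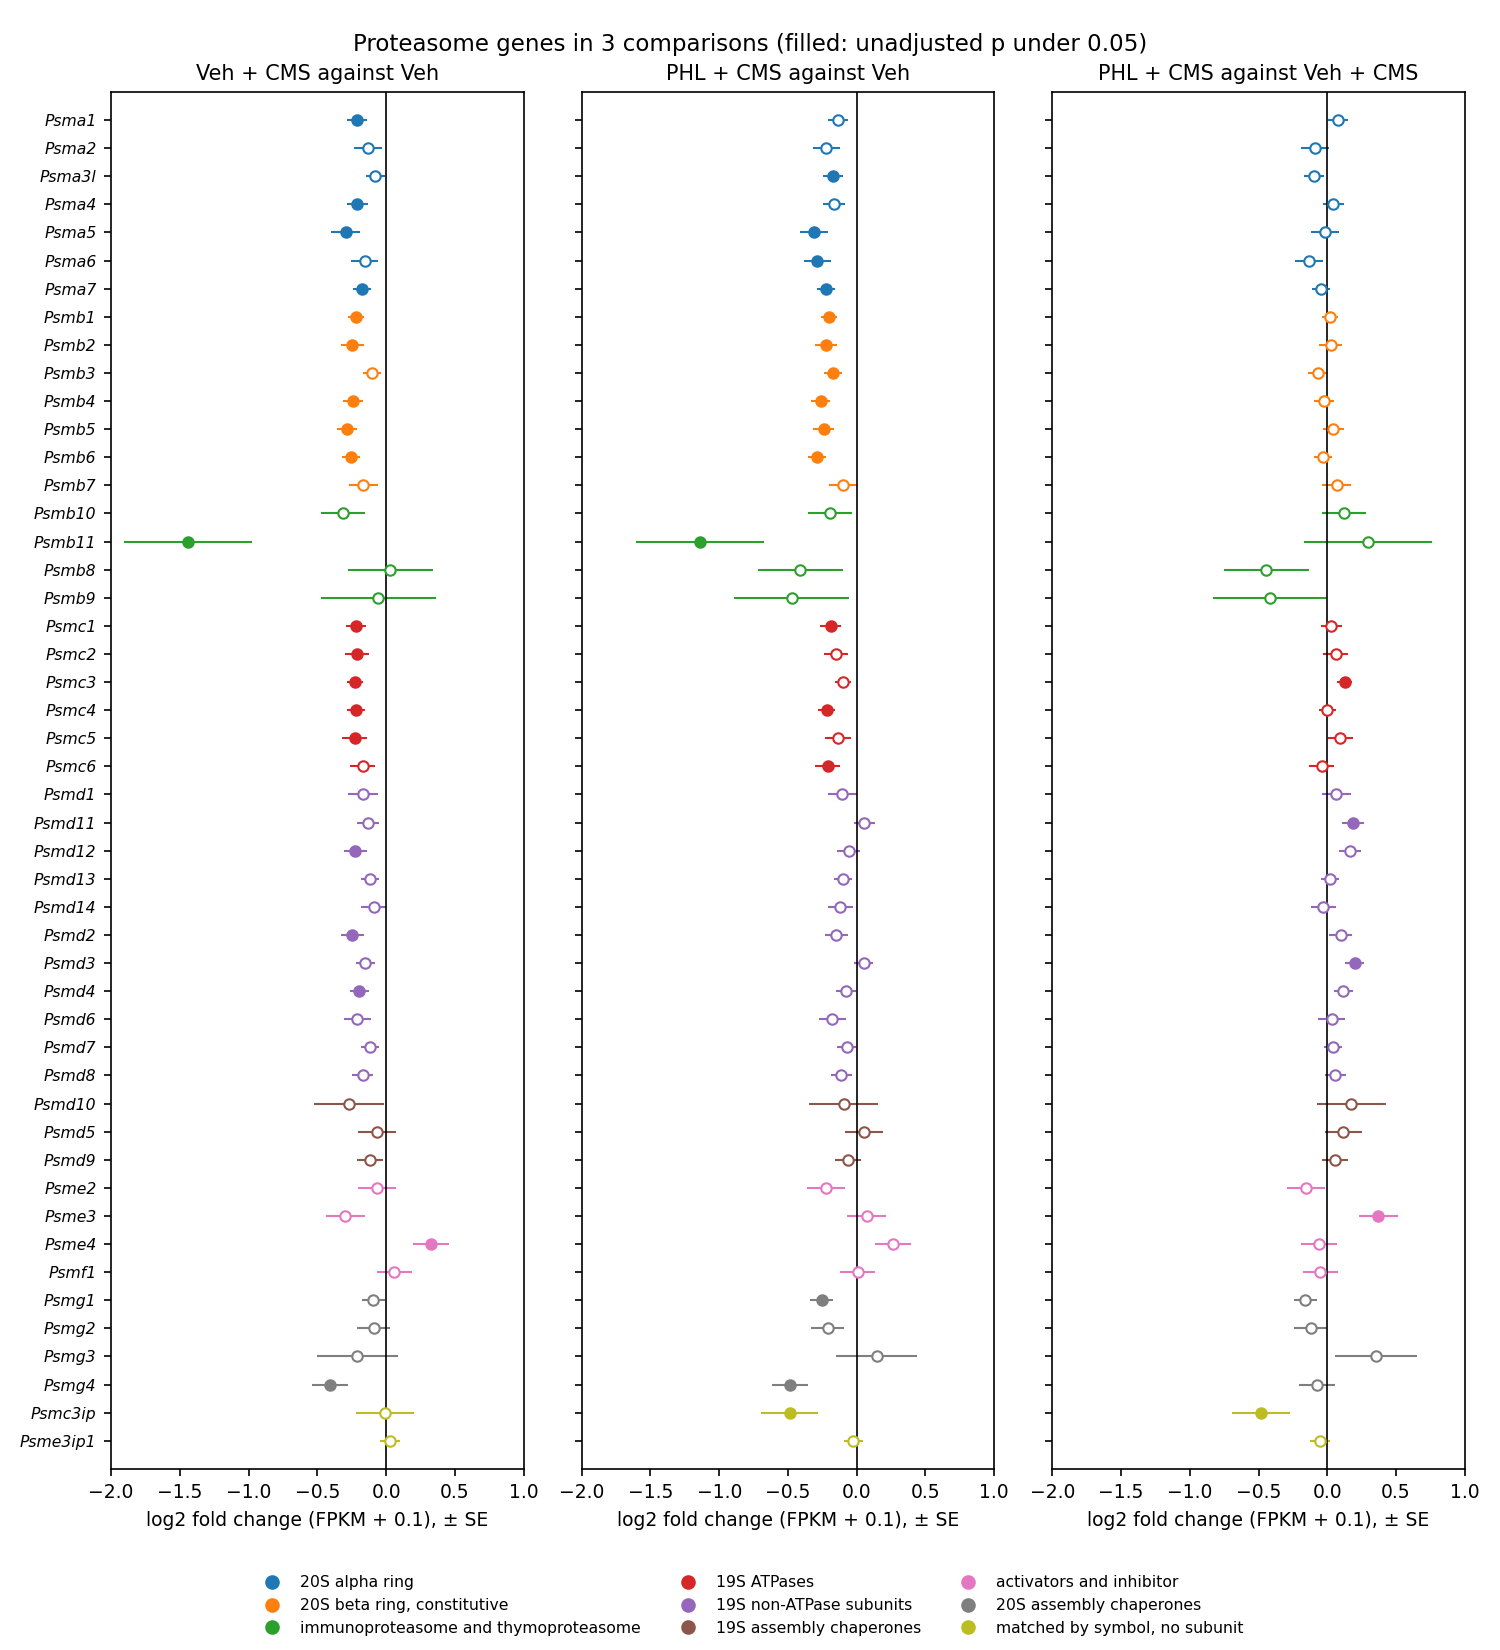
Log2 fold change on the FPKM + 0.1 scale, with its standard error from limma, of the 48 tested proteasome genes in the 3 comparisons. Colours mark functional groups and filled points an unadjusted p under 0.05; points lie mostly left of 0 in both comparisons with Veh (44 and 41 of 48) and near 0 in PHL + CMS against Veh + CMS (28 above).

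PHL + CMS libraries stood on the same side of Veh. In PHL + CMS against Veh 41 of 48 genes lay below 0, with a median of -0.17 against a median of 0.0033 over all genes tested, where 49.3% lay below and 50.6% above 0. Among protein-coding genes with a mean of at least 20 FPKM, 59% lay below 0. Of mitochondrial ribosomal protein genes 89.2% lay below 0, and of respiratory chain genes 95.9%. No proteasome gene passed the adjusted p in limma, and 0% of all genes did. The lowest adjusted p of a proteasome gene was 0.246, for Psmb6. At an unadjusted p under 0.05, 17 were lower and 0 higher, beside 5.78% and 4.99% of all genes. PHL + CMS libraries lay below all Veh libraries in 21 genes and above in 1, beside 8.78% and 8.77% of all genes. Without Psmc3ip and Psme3ip1, 39 of 46 genes lay below 0, 16 were lower at that p and 20 lay below all Veh libraries. The 20S core had all 14 genes below 0 (median -0.22, 10 lower at that p), while of the 11 non-ATPase subunits of the cap 9 lay below 0 with a median of -0.10, and none had a p under 0.05 in either direction. These counts rested partly on 2 libraries. Without PHL + CMS replicate 2, 7 genes were called, all among the 17. Without Veh replicate 2, 9 were called, 8 of them among the 17.

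Between PHL + CMS and Veh + CMS the proteasome genes differed little at the median. The median log2 fold change was 0.03, with 28 genes above and 20 below 0, beside a median of 0.0077 over all genes, of which 48.9% lay below 0. None passed the adjusted p in limma (0% of all genes did), with a lowest adjusted p of 0.221, and at an unadjusted p under 0.05 4 were higher and 1 lower, beside 7.51% and 8.22% of all genes. The lower gene was Psmc3ip, which encodes no subunit, so that without it and Psme3ip1 there were 4 higher and 0 lower, and 18 of 46 genes lay below 0. The groups did not overlap in 5 genes that were higher and 1 that was lower, beside 10.5% and 10.7% of all genes. The share of proteasome genes that were higher, 8.33%, was thus near that of all genes. The 4 higher genes were Psmd3, Psmd11 and Psmc3 of the 19S cap and the activator gene Psme3. Of the 17 cap genes 15 lay above 0 (median 0.06) against 6 of the 14 core genes (median -0.02), a contrast that was not tested. Among the 4131 protein-coding genes with a mean of at least 20 FPKM, 2585 lay above 0, with a median of 0.06 like that of the cap. Of these, 14.6% were higher at an unadjusted p under 0.05. Leaving out Veh + CMS replicate 1 left no called gene, and leaving out PHL + CMS replicate 3 left 1. The 3 comparisons share libraries, so their values are set side by side and not related to each other.

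The catalytic subunits beta5 and beta1 had the smallest p of the core genes in Veh + CMS against Veh. Psmb5 stood at 141, 127 and 135 FPKM in the Veh libraries, 113, 105 and 113 in the Veh + CMS libraries and 121, 106 and 114 in the PHL + CMS libraries. The Veh libraries did not overlap with either CMS group. The log2 fold change of Psmb5, the chymotrypsin-like subunit, was -0.28 (SE 0.07) in Veh + CMS against Veh (adjusted p = 0.0691 in limma), -0.24 (SE 0.07) in PHL + CMS against Veh and 0.04 (SE 0.07) between the 2 CMS groups. Psmb6 encodes the caspase-like subunit. The FPKM of Psmb6 were 148, 164 and 158 in Veh, 134, 125 and 135 in Veh + CMS and 129.5, 123 and 132 in PHL + CMS. Its log2 fold change was -0.26 (SE 0.07) with CMS (adjusted p = 0.0689 in limma) and -0.29 (SE 0.07) with PHL + CMS (adjusted p = 0.246), and all 3 Veh libraries were above all other libraries. Both calls of Psmb6 held in each of the 9 fits with 1 library left out. Psmb7 encodes the trypsin-like subunit. Psmb7 gave 56.1, 73.4 and 62.7 FPKM (Veh), 52.9, 59.6 and 57.7 (Veh + CMS) and 62.7, 60.8 and 55.1 (PHL + CMS). Its groups overlapped, with log2 fold changes of -0.17 (SE 0.10) and -0.10 (SE 0.10) against Veh.

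Promoters of these genes are shown because NRF1, as background, acts on proteasome genes through elements that share the letters TGANNNNGC. RefSeq promoters of the assembly GRCr8, 250 bases before to 50 after the start, matched 44 of the 50 symbols, with Psma3l, Psma7, Psmb11, Psmd12, Psmd14 and Psmd6 unmatched. Searched on both strands, TGANNNNGC was in 22 of the 44 (50%) and in 40.5% of all 33469 promoters. It was in all 7 constitutive beta genes, in 6 of 8 non-ATPase genes, but in 1 of 6 alpha genes and 1 of 6 ATPase genes. The full letters TGACTCAGC were in 0 of 44 and in 0.415% of all. GAAANNGAA, a core shared by interferon response elements, was in 9 of 44 (20.5%) and in 9.71% of all promoters, and CCAAT in 22 (50%) and 37.5%. TTCNNNGAA, a STAT site, was in 4 of 44 (9.09%) and in 8.87% of all promoters. Each window below runs 5′ to 3′ along the gene's strand, 60 bases long, with the matched letters in capitals, and a match on the opposite strand reads as its reverse complement. The windows lie at chr15:32047406-32047465 on the minus strand for Psmb5, chr10:55737828-55737887 on the plus strand for Psmb6, chr3:42827518-42827577 on the minus strand for Psmb7, chr20:4668940-4668999 on the plus strand for Psmb9, chr19:50743293-50743352 on the minus strand for Psmb10, chr15:33052771-33052830 on the minus strand for Psme2 and chr17:30923375-30923434 on the minus strand for Psmg4.
Psmb5: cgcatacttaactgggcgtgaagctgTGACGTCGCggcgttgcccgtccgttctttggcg
Psmb6: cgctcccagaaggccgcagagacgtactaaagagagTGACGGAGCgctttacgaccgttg
Psmb7: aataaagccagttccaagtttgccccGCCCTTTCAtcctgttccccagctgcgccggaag
Psmb9: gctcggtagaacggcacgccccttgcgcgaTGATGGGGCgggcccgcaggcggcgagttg
Psmb10: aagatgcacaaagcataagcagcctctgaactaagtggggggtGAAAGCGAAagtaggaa
Psme2: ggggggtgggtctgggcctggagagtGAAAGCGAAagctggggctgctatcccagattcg
Psmg4: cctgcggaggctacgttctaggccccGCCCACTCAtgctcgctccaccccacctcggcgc
Psmb5, Psmb6, Psmb7, Psmb9 and Psmg4 carry TGANNNNGC in capitals, in Psmb7 and Psmg4 on the opposite strand, and Psmb10 and Psme2 carry GAAANNGAA. Psmb10 holds 2 more matches, which overlap each other, further from its start. Psmb8 also has a GAAANNGAA match, across its start at -3 to 5, which is not shown. These matches are letters only, and binding was not measured.

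**Figure D2:**
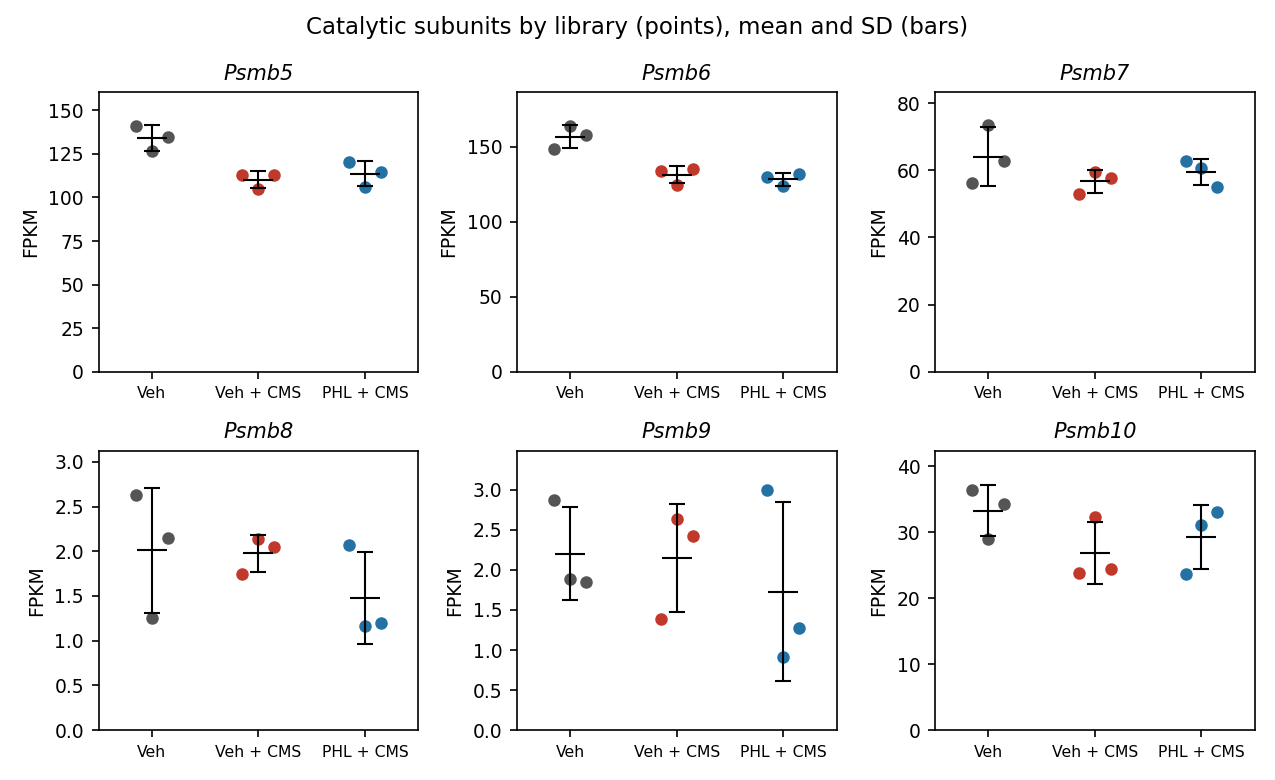
FPKM of the constitutive catalytic subunits (top) and of their immunoproteasome counterparts (bottom) in each library, with the mean and SD of 3 libraries per group. Psmb5 and Psmb6 lie higher in the 3 Veh libraries than in all others, and the groups of Psmb7, Psmb8, Psmb9 and Psmb10 overlap.

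Psmb8 and Psmb9 were low, and no inducible catalytic gene separated the groups. Psmb8 had 2.62, 1.25 and 2.15 FPKM in the Veh libraries, 1.74, 2.14 and 2.04 in the Veh + CMS libraries and 2.07, 1.16 and 1.19 in the PHL + CMS libraries. Psmb8 (ENSRNOG00000000456, chromosome 20, 3990613 to 3993769 in Rnor_6.0) encodes the inducible beta5i subunit, and its values came from only 37 to 87 reads. The log2 fold change was 0.03 (SE 0.31) in Veh + CMS against Veh and -0.44 (SE 0.31) in PHL + CMS against Veh + CMS, where PHL + CMS replicates 2 and 3 were the lowest but replicate 1 lay inside the Veh + CMS range. The FPKM of Psmb9 were 2.87, 1.88 and 1.85 in Veh, 1.38, 2.64 and 2.42 in Veh + CMS and 2.997, 0.913 and 1.27 in PHL + CMS. Psmb9, the beta1i gene near Psmb8 on chromosome 20 (3973420 to 3978845), spread widely within PHL + CMS alone, with 22 to 80 reads over the libraries. Psmb10 gave 36.5, 29.03 and 34.4 FPKM (Veh), 23.8, 32.3 and 24.5 (Veh + CMS) and 23.7, 31.1 and 33.04 (PHL + CMS). Psmb10, for beta2i, was much more abundant than the other inducible subunits, and Veh + CMS replicates 1 and 3 and PHL + CMS replicate 1 were its low libraries. Its log2 fold change was -0.31 (SE 0.16) with CMS, and the groups overlapped.

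The ratio of each inducible subunit to the one it replaces overlapped between groups as well. The log2 ratio of Psmb8 to Psmb5 was -6.66 to -5.75 in Veh, -6.01 to -5.61 in Veh + CMS and -6.58 to -5.87 in PHL + CMS. That of Psmb9 to Psmb6 was -6.45 to -5.69, -6.59 to -5.56 and -7.08 to -5.43, and that of Psmb10 to Psmb7 -1.34 to -0.62, -1.24 to -0.88 and -1.40 to -0.74. For each pair the ranges of the 3 groups overlapped. Psmb8, Psmb9 and Psmb10 together made up 8.12% to 10.8% of the FPKM of the 6 catalytic genes in Veh, 8.26% to 11.4% in Veh + CMS and 8.43% to 10.6% in PHL + CMS, nearly all from Psmb10. Over the 9 libraries, tested protein-coding genes with a symbol were ranked by Pearson's r of log2(FPKM + 0.1) with Psmb8. The most like were Rnf32 (0.955), Olr34 (0.919), Pccb (0.916), Ung (0.909) and LOC103692173 (0.892), and no immunoproteasome gene was among them. Psmb11 is the thymoproteasome subunit, made in thymic epithelium. Psmb11 was listed at 1.58, 1.83 and 1.01 FPKM in the Veh libraries, 0.398, 0.305 and 0.799 in the Veh + CMS libraries and 0.440, 0.418 and 1.10 in the PHL + CMS libraries. These values rest on 4 to 25 reads, and the fold change of -1.44 (SE 0.46) in Veh + CMS against Veh (adjusted p = 0.115 in limma) came with Veh levels above all Veh + CMS levels, while PHL + CMS replicate 3 lay within the Veh range.

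Genes of interferon signalling and antigen processing, listed beside the immunoproteasome, differed in few cases. Of 13 tested, 10 lay above 0 in Veh + CMS against Veh (median 0.08), beside 47.5% of all genes, and only Ifngr2, the signalling chain of the interferon gamma receptor, had a p under 0.05, at -0.32 (SE 0.13), or 7.69% of the list beside 11.3% of all genes lower. In PHL + CMS against Veh + CMS the median was -0.06. Only Jak1, a kinase of that receptor, had a p under 0.05 there, at 0.27 (SE 0.11), or 7.69% of the list beside 7.51% of all genes higher. Their calls held in 5 (Ifngr2) and 4 (Jak1) of the 9 fits with 1 library left out. Neither passed the adjusted p (0.189 and 0.291 in limma). Microglia markers, cells known to carry immunoproteasomes, had mean log2 levels relative to Veh of -0.16 to 0.09 in Veh, 0.06 to 0.40 in Veh + CMS and -0.26 to -0.10 in PHL + CMS, and their part in the values of Psmb8 and Psmb9 was not tested.

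Of the other core genes, Psmb4, Psmb1 and Psma7 had the smallest p in PHL + CMS against Veh. Psmb4 stood at 223, 228 and 227 FPKM in the Veh libraries, 196, 179 and 199.7 in the Veh + CMS libraries and 197, 177 and 192 in the PHL + CMS libraries. Psmb4 belongs to the beta ring without being catalytic, and its Veh libraries were above all others. Its log2 fold change was -0.24 (SE 0.07) with CMS and -0.26 (SE 0.07) with PHL + CMS (adjusted p = 0.279 in limma). The FPKM of Psmb1 were 157, 169 and 167 in Veh, 141, 143 and 139 in Veh + CMS and 145, 142 and 141 in PHL + CMS. Psmb1, also structural, had log2 fold changes of -0.22 (SE 0.06, adjusted p = 0.0709) and -0.20 (SE 0.06) against Veh in limma, with no overlap with Veh. Psma7 gave 147, 135 and 144 FPKM (Veh), 130.1, 123 and 124 (Veh + CMS) and 123, 116 and 126 (PHL + CMS). Psma7, a subunit of the alpha ring, was at -0.18 (SE 0.06) and -0.22 (SE 0.06). Under quantile normalization Psmb4, Psmb1 and Psma7 no longer had a call with CMS, at -0.10, -0.11 and -0.09, and that of Psma7 was also lost without Veh replicate 1 or 3 or Veh + CMS replicate 3. The 14 tested core genes ranged from -0.29 (Psma5) to -0.08 (Psma3l) in Veh + CMS against Veh and from -0.31 (Psma5) to -0.10 (Psmb7) in PHL + CMS against Veh.

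In the ATPase ring, Psmc3 had the smallest p with CMS. Psmc3 measured 108, 107 and 106 FPKM in the Veh libraries, 88.6, 91.8 and 92.996 in the Veh + CMS libraries and 97.9, 101 and 99.3 in the PHL + CMS libraries. Psmc3 (ENSRNOG00000011414, chromosome 3, 79876938 to 79882319) encodes Rpt5, which helps to open the gate of the core. Veh was above both CMS groups, and PHL + CMS lay between, without overlap on either side. The log2 fold change was -0.23 (SE 0.06) for Veh + CMS against Veh (adjusted p = 0.0585 in limma), -0.10 (SE 0.06) for PHL + CMS against Veh and 0.13 (SE 0.06) for PHL + CMS against Veh + CMS (adjusted p = 0.317). The last comparison was under an unadjusted p of 0.05 in the full fit but in none of the 9 fits with 1 library left out, where the log2 fold change was 0.11 to 0.14. The FPKM of Psmc4 were 64.5, 59.9 and 59.6 in Veh, 54.9, 50.7 and 52.5 in Veh + CMS and 53.6, 51.6 and 52.8 in PHL + CMS. Psmc4, for Rpt3, differed from Psmc3 in that PHL + CMS stayed at the Veh + CMS level, with -0.22 (SE 0.06) and -0.22 (SE 0.06) against Veh. Psmc5 gave 192, 173 and 155 FPKM (Veh), 151, 149 and 142 (Veh + CMS) and 144, 161 and 168 (PHL + CMS). Psmc5, the most abundant ATPase gene, was at -0.23 (SE 0.09) with CMS and -0.14 (SE 0.09) with PHL + CMS. Psmc6 stood at 46.9, 49.03 and 45.2 FPKM in the Veh libraries, 46.2, 41.2 and 38.1 in the Veh + CMS libraries and 42.7, 37.2 and 42.1 in the PHL + CMS libraries. Psmc6, the least abundant, was at -0.17 (SE 0.09) and -0.21 (SE 0.09).

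Psmd3 and Psmd11, subunits of the lid of the cap, were higher in PHL + CMS than in Veh + CMS at an unadjusted p under 0.05. Psmd3 stood at 62.3, 57.8 and 57.5 FPKM in the Veh libraries, 51.1, 52.1 and 56.9 in the Veh + CMS libraries and 63.5, 58.9 and 61.6 in the PHL + CMS libraries. The PHL + CMS libraries were above the Veh + CMS libraries and overlapped with Veh, with a log2 fold change of 0.20 (SE 0.07, adjusted p = 0.221 in limma). The FPKM of Psmd11 were 27.1, 29.1 and 30.6 in Veh, 26.01, 25.1 and 28.1 in Veh + CMS and 29.2, 31.8 and 29.3 in PHL + CMS. For Psmd11 the 2 CMS groups did not overlap either, at 0.19 (SE 0.08, adjusted p = 0.292 in limma). Both calls are sensitive to single libraries. Without Veh + CMS replicate 1 neither was under an unadjusted p of 0.05, with log2 fold changes of 0.17 for Psmd3 and 0.18 for Psmd11. The call of Psmd3 was also lost without PHL + CMS replicate 1 (0.18), and that of Psmd11 without Veh replicate 2, Veh + CMS replicate 2, or PHL + CMS replicate 2 or 3, at 0.15 to 0.21. Psmd6 gave 93.5, 93.7 and 96.99 FPKM (Veh), 88.99, 71.5 and 86.2 (Veh + CMS) and 89.7, 75.6 and 86.3 (PHL + CMS). Psmd6, the most abundant lid gene, was at -0.21 (SE 0.10) with CMS and 0.03 (SE 0.10) between the CMS groups. Among all 11 non-ATPase genes Psmd2, Psmd4 and Psmd12 were lower with CMS at an unadjusted p under 0.05, at -0.25, -0.19 and -0.22. That share of 27.3% stood beside 11.3% of all genes and 26.3% of protein-coding genes with a mean of at least 20 FPKM. The calls of Psmd2, Psmd4 and Psmd12 were lost without Veh replicate 1 (Psmd2 and Psmd4), Veh replicate 2 (Psmd12) or Veh + CMS replicate 2 (Psmd4 and Psmd12), at -0.20 to -0.16.

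**Figure D3:**
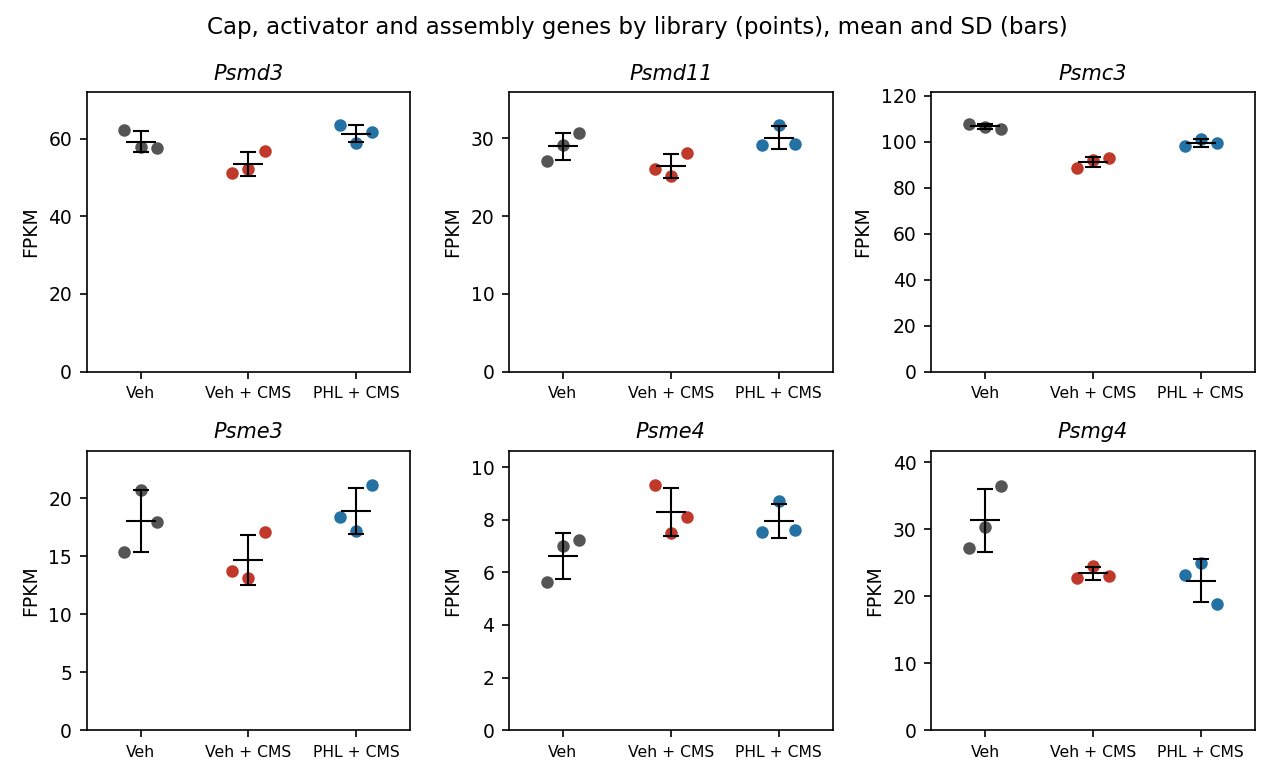
FPKM of genes of the cap (Psmd3, Psmd11, Psmc3), of activators (Psme3, Psme4) and of an assembly chaperone (Psmg4) in each library, with the mean and SD of 3 libraries per group. Psmd3, Psmd11, Psmc3 and Psme3 lie lower in Veh + CMS than in PHL + CMS, Psme4 lies higher in Veh + CMS than in Veh, and Psmg4 is highest in Veh.

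Genes of the alternative caps differed among themselves. Psme4 stood at 5.62, 7.02 and 7.25 FPKM in the Veh libraries, 9.31, 7.51 and 8.10 in the Veh + CMS libraries and 7.52, 8.70 and 7.61 in the PHL + CMS libraries. Psme4 encodes PA200, a cap that opens the core without ATP, and all Veh + CMS libraries were above all Veh libraries. It was the only gene with a higher call with CMS, at 0.32 (SE 0.13, adjusted p = 0.187 in limma), and stood at 0.26 (SE 0.13) in PHL + CMS against Veh, also without overlap. The CMS call was lost when either replicate 1 or 3 of Veh + CMS (0.24 and 0.34) or the first Veh library (0.21) was left out. The FPKM of Psme3 were 15.4, 20.8 and 17.997 in Veh, 13.7, 13.2 and 17.1 in Veh + CMS and 18.4, 17.2 and 21.1 in PHL + CMS. Psme3 encodes PA28 gamma, the nuclear activator, and was higher in every PHL + CMS library than in every Veh + CMS library, at 0.37 (SE 0.14, adjusted p = 0.260 in limma). That call was lost without Veh + CMS replicate 1, Veh + CMS replicate 2 or PHL + CMS replicate 3, with log2 fold changes of 0.33, 0.30 and 0.29. Psme3 shares 7784 bases with AC123346.1 on the same strand, a row at 0.423 FPKM.

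Psme2 and Psmf1 showed no separation. Psme2 had 17.9, 15.5 and 16.7 FPKM in the Veh libraries, 13.4, 16.9 and 17.9 in the Veh + CMS libraries and 16.3, 14.6 and 12.2 in the PHL + CMS libraries. Psme2 encodes PA28 beta, the partner of the Psme1 product, and its log2 fold changes were -0.07 (SE 0.14) with CMS and -0.22 (SE 0.14) with PHL + CMS. The FPKM of Psme1 ranged from 0 to 0.352 over the libraries. Psmf1 gave 29.7, 24.4 and 29.4 FPKM (Veh), 33.6, 24.5 and 29.1 (Veh + CMS) and 28.8, 25.6 and 29.4 (PHL + CMS). Psmf1 encodes PI31, an inhibitor of the core in vitro, and stayed within 0.01 to 0.06 on the log2 scale against Veh, with all groups overlapping.

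Psmg4 had larger fold changes against Veh than the other chaperones of core assembly. Psmg4 gave 27.3, 30.3 and 36.4 FPKM in the Veh libraries, 22.7, 24.5 and 23.03 in the Veh + CMS libraries and 23.2, 24.98 and 18.8 in the PHL + CMS libraries. Psmg4 pairs with Psmg3 to place alpha subunits, and its Veh libraries were above those of both CMS groups. The log2 fold change was -0.41 (SE 0.13) in Veh + CMS against Veh (adjusted p = 0.111 in limma) and -0.49 (SE 0.13) in PHL + CMS against Veh (adjusted p = 0.276), and both stayed under an unadjusted p of 0.05 in each of the 9 fits with 1 library left out. The FPKM of Psmg3 were 32.7, 33.6 and 33.3 in Veh, 22.2, 44.6 and 23.9 in Veh + CMS and 25.6, 36.8 and 52.5 in PHL + CMS. Psmg3, its partner, was nearly constant over the Veh libraries and spread over the other groups, with Veh + CMS replicate 2 and PHL + CMS replicates 2 and 3 high, so that no direction could be read. Psmg1 gave 30.05, 26.9 and 27.1 FPKM (Veh), 27.6, 25.5 and 25.6 (Veh + CMS) and 24.7, 21.4 and 24.4 (PHL + CMS). Psmg1, which joins with Psmg2 in another chaperone pair, was lower in every PHL + CMS library than in every other library, at -0.26 (SE 0.08) against Veh and -0.16 (SE 0.08) against Veh + CMS (adjusted p = 0.360 and adjusted p = 0.395 in limma). The call against Veh was lost without Veh replicate 1 (-0.20) or PHL + CMS replicate 2 (-0.19). Psmg2 stood at 13.2, 14.3 and 11.6 FPKM in the Veh libraries, 13.5, 11.3 and 11.9 in the Veh + CMS libraries and 12.3, 11.5 and 9.95 in the PHL + CMS libraries. Psmg2 overlapped between groups.

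The chaperones of the cap, Psmd5, Psmd9 and Psmd10, had no unadjusted p under 0.05 in any comparison. The FPKM of Psmd9 were 20.3, 21.2 and 20.9 in Veh, 16.998, 20.4 and 20.2 in Veh + CMS and 21.2, 18.1 and 20.4 in PHL + CMS. Psmd9 helps to place ATPases, and its groups lay close together, at -0.12 (SE 0.09) with CMS. Psmd10 gave 3.21, 5.70 and 3.75 FPKM (Veh), 2.75, 4.35 and 3.22 (Veh + CMS) and 4.45, 3.005 and 4.19 (PHL + CMS). Psmd10, also called gankyrin, rested on 24 to 45 reads, at -0.27 (SE 0.25) with CMS. Of the 2 rows that encode no subunit, Psme3ip1 stayed between -0.02 and 0.03 against Veh. Psmc3ip stood at 5.06, 6.12 and 4.79 FPKM in the Veh libraries, 5.14, 3.94 and 7.21 in the Veh + CMS libraries and 4.12, 3.87 and 3.29 in the PHL + CMS libraries. Psmc3ip had a log2 fold change of -0.48 (SE 0.21) in PHL + CMS against Veh + CMS (adjusted p = 0.311 in limma) and -0.49 (SE 0.21) against Veh, from 45 to 109 reads. The first call held in only 1 of the 9 fits with 1 library left out, and the value without Veh + CMS replicate 3 was -0.26.

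Genes that work with the proteasome but fall outside the symbol rule were taken from a list of 34 symbols, of which 32 rows were tested (Rps27a has 2 rows). In Veh + CMS against Veh 21 of 32 lay below 0 (median -0.09), and 5 (15.6%) were lower and none higher at an unadjusted p under 0.05. Over all genes tested 52.5% lay below 0 and 11.3% were lower. Sem1, the smallest subunit of the cap, had the smallest p. Sem1 stood at 82.8, 98.2 and 97.3 FPKM in the Veh libraries, 72.8, 71.3 and 60.7 in the Veh + CMS libraries and 62.2, 52.4 and 63.2 in the PHL + CMS libraries. Its Veh libraries were above all others, at -0.44 (SE 0.11) with CMS (adjusted p = 0.0595 in limma) and -0.65 (SE 0.11) with PHL + CMS (adjusted p = 0.235). The FPKM of Ubb were 864, 987 and 844 in Veh, 703, 669 and 779.8 in Veh + CMS and 906, 877 and 879.6 in PHL + CMS. Ubb is a polyubiquitin gene, but its row is annotated as a pseudogene. It was lower in Veh + CMS than in both other groups without overlap. Its log2 fold change was -0.32 (SE 0.09) against Veh and 0.31 (SE 0.09) for PHL + CMS against Veh + CMS (adjusted p = 0.181 in limma). Rad23b, a shuttle that brings ubiquitinated proteins to the cap, had -0.28 (SE 0.08) and 0.21 (SE 0.08) in those comparisons. In PHL + CMS against Veh, Ubqln1, another shuttle, was at 0.14 (SE 0.06). With each library left out in turn, the calls of Sem1 and Ubb held in all 9 fits, that of Rad23b in PHL + CMS against Veh + CMS in 6 (lost without Veh + CMS replicate 2, at 0.14, or PHL + CMS replicate 1 or 3), and that of Ubqln1 in 3. Quantile normalization moved the value of Ubb with CMS to -0.18, which ended the call.

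Of the regulators, Nfe2l1 for NRF1 had no unadjusted p under 0.05, with -0.03 (SE 0.08) in Veh + CMS against Veh and 0.11 (SE 0.08) in PHL + CMS against Veh + CMS. Nfe2l2 stood at 10.8, 10.5 and 11.99 FPKM in the Veh libraries, 12.99, 14.8 and 10.7 in the Veh + CMS libraries and 9.16, 10.97 and 9.50 in the PHL + CMS libraries. Nfe2l2 encodes NRF2, the oxidative stress factor that binds the same kind of element, and was lower in PHL + CMS than in Veh + CMS at -0.37 (SE 0.13, adjusted p = 0.225 in limma), with 1 PHL + CMS library within the Veh + CMS range. Ngly1, the enzyme that activates NRF1 by removing its glycans, was at -0.19 (SE 0.08) in the same comparison (adjusted p = 0.290 in limma). The call of Nfe2l2 held in 5 of the 9 fits with 1 library left out (-0.26 without Veh + CMS replicate 2), and that of Ngly1 in 2.

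Genes of other large complexes were set beside the proteasome genes. They were taken by the start of their symbols, so the sets can also hold genes that encode no part of the complexes. In Veh + CMS against Veh the median log2 fold change was -0.19 over 74 mitochondrial ribosomal protein genes, -0.25 over 98 respiratory chain genes and 0.05 over 98 cytosolic ribosomal protein genes. In PHL + CMS against Veh the medians were -0.18, -0.27 and -0.14, and in PHL + CMS against Veh + CMS 0.02, -0.04 and -0.22. The proteasome medians of -0.17, -0.17 and 0.03 were close to those of the mitochondrial ribosome and differed in sign from those of the cytosolic ribosome in Veh + CMS against Veh and in PHL + CMS against Veh + CMS, and no difference between families was tested. Over the 4131 protein-coding genes with a mean of at least 20 FPKM the medians were -0.11, -0.04 and 0.06, and 26.3% of these were lower at an unadjusted p under 0.05 in Veh + CMS against Veh, beside 39.6% of the proteasome genes.

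Cell type markers differed between the same libraries. All 8 excitatory neuron markers passed the filter on low values and so did all 8 markers of striatum. The 15 oligodendrocyte and myelin markers all passed the adjusted p as higher in Veh + CMS against Veh, and their mean log2 level relative to Veh was -0.18 to 0.16 in the Veh libraries, 1.44 to 1.79 in Veh + CMS and 0.12 to 1.25 in PHL + CMS, where replicate 2 was the high one. The 8 excitatory neuron markers stood at -0.08 to 0.10 in Veh, -0.24 to -0.16 in Veh + CMS and 0.01 to 0.14 in PHL + CMS, and the 8 striatal markers at -0.74 to 1.19, 0.42 to 1.77 and -0.50 to -0.22. The 7 tested markers of meninges and fibroblasts stood at -0.75 to 0.51 in Veh, -0.98 to -0.41 in Veh + CMS and -1.02 to 0.62 in PHL + CMS, where replicate 2 was the low one, and all 7 had a log2 fold change below 0 in Veh + CMS against Veh (median -0.68) and above 0 in PHL + CMS against Veh + CMS (median 0.89). Astrocyte markers stood at -0.16 to 0.24, 0.05 to 0.52 and -0.05 to 0.07, and endothelial markers at -0.09 to 0.16, -0.15 to 0.58 and -0.29 to 0.18. The median over the proteasome genes in single libraries was -0.01 to 0.01 in Veh, -0.21 to -0.16 in Veh + CMS and -0.20 to -0.11 in PHL + CMS. In PHL + CMS replicates 1, 2 and 3 the myelin means were 0.34, 1.25 and 0.12, and the proteasome medians -0.11, -0.20 and -0.16. The part of cell makeup in these values was not tested. The libraries held 13913639 to 16960004 reads on genes, and mitochondrial transcripts took 9.74% to 10.6% of the reads in Veh, 9.67% to 13.9% in Veh + CMS and 6.96% to 9.09% in PHL + CMS.

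**Figure D4:**
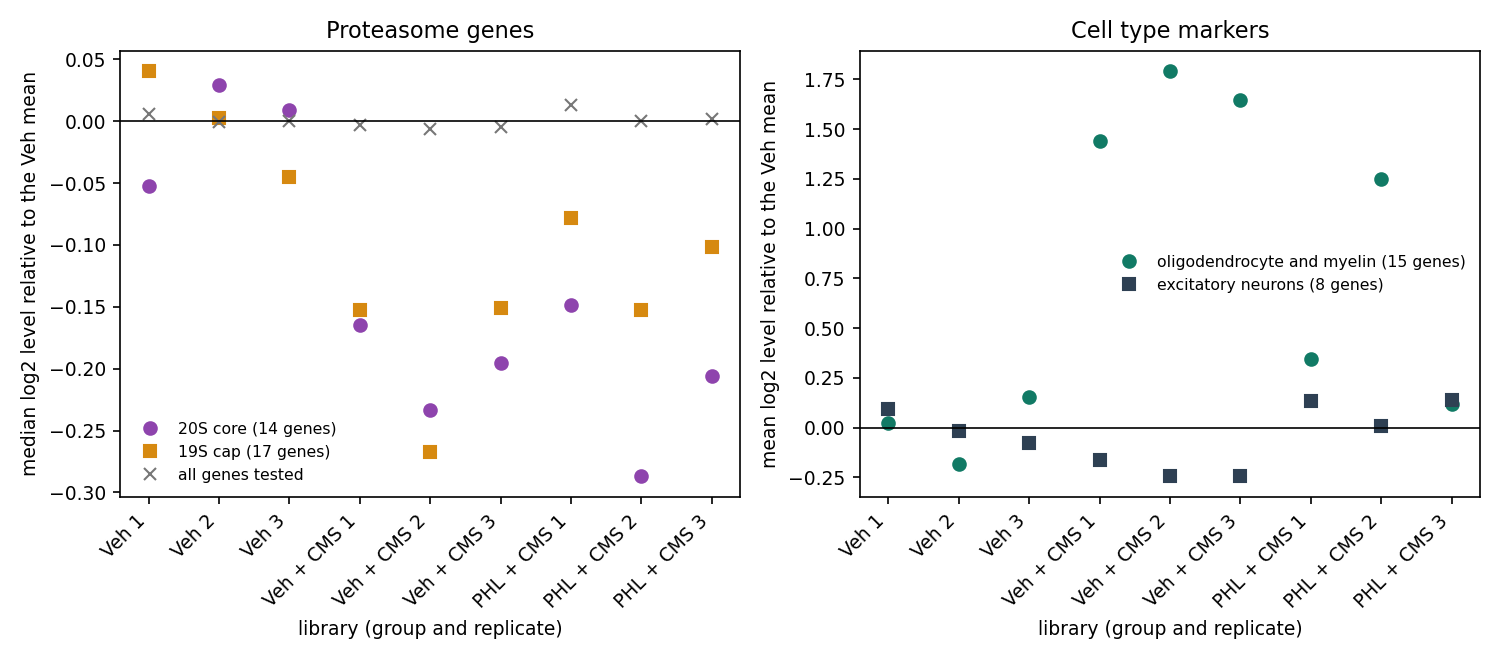
Left, the median log2 level relative to the Veh mean of the 20S core genes, the 19S cap genes and all genes tested in each library; right, the mean of the oligodendrocyte and excitatory neuron markers on the same scale. Core and cap medians lie below every Veh library in all CMS libraries, while the oligodendrocyte mean of PHL + CMS runs from 0.12 to 1.25.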

How the data were processed

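The authors deposited FPKM for every gene and library, with gene length, and the submitters' processing notes name HISAT2 and Rnor_6.0; how reads were filtered and counted, and on which annotation release, is not given in the sources used here. These FPKM multiplied by length were whole multiples of 1 step within 1e-06 (100% of nonzero values), which gave reads per gene. No scaling was added, since size factors by the median of ratios departed by at most 0.619%. Genes with a mean of at least 0.5 FPKM were fitted with limma 3.58.1 (R 4.3.3) on log2(FPKM + 0.1), with a trend and all 9 libraries in 1 model (9.04 residual degrees of freedom with the prior), so fold changes of low genes are understated. Tests were two-sided, with Benjamini-Hochberg adjustment over all genes, and 144 tests of proteasome genes over 3 comparisons are behind the counts. An exact permutation test of 3 against 3 cannot go below 0.1 and was not used. The fit was also run on simulated reads, whose spread was set the same for all genes and not estimated from these libraries. That run gives no error rates for these data.

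The proteasome genes and all lists were chosen with earlier results of these data known. Genes named by library were the catalytic, activator and core chaperone genes, up to 5 genes per comparison and direction with the lowest p under 0.05, the highest and lowest level of each group, untested genes and rows that encode no subunit; partners were named by the 3 smallest p, and 1 that met this rule is not reported here. Alternatives covered pseudocounts, filters, scaling, the model, recovered reads, a replicate block and each library left out. Libraries of a group differed by more than sampling noise (chi-square per degree of freedom 10.6 to 35.8). No column of another sample was used.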

Additional observations from a re-analysis of the deposited data

How the results depend on the processing

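The directions against Veh held under all 24 alternatives, though not all of these could have changed them. Fold changes are fixed when only the moderation, the filter, the replicate block or a library outside the comparison changes. In the alternatives that tested 48 proteasome genes, 42 to 45 lay below 0 in Veh + CMS against Veh. In PHL + CMS against Veh 38 to 44 did, and in PHL + CMS against Veh + CMS 16 to 27. With no filter these were 46, 43 and 20 of 50, and with a mean of at least 1 FPKM 43, 40 and 20 of 47. Quantile normalization lowered the calls at an unadjusted p under 0.05 from 20 to 6, from 17 to 10 and from 5 to 3 in the same order, and moved the medians to -0.10, -0.12 and -0.0053. Scaling by all reads of each library, chosen after seeing the data, gave 11 calls in PHL + CMS against Veh and a median of 0.058 in PHL + CMS against Veh + CMS. The 5 calls of the last comparison became 2 in a fit of only the groups compared, 2 without the trend, 3 with voom on recovered reads and 3 with scaling by reads outside the mitochondrial genome (also chosen after seeing the data). With library weights in limma, 3 genes passed the adjusted p in Veh + CMS against Veh. Leaving out each library in turn gave 14 to 21, 7 to 17 and 0 to 4 calls, and medians of -0.21 to -0.16, -0.19 to -0.13 and -0.023 to 0.056. The median of the last comparison was -0.023 without Veh + CMS replicate 2. The cause of these shifts was not tested. Same-numbered libraries did not deviate together (r of -0.10 to 0.05, and 2 of 9 libraries correlated best with their own number), so the numbers were not taken as pairs. A replicate block gave 18, 12 and 2 calls, and 0 past the adjusted p. Psmb8, Psmb9 and Psmb11, with under 100 reads, allow no reading of small differences.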

Other observations

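Pomp, which encodes the maturation factor of the 20S core and was chosen for mention after its values were seen, spread widely between libraries of 1 group. Pomp stood at 42.8, 37.1 and 121 FPKM in the Veh libraries, 114, 66.4 and 67.5 in the Veh + CMS libraries and 102, 34.8 and 125 in the PHL + CMS libraries. Its Veh range covered that of Veh + CMS, and its log2 fold changes of 0.47 (SE 0.55) and 0.40 (SE 0.55) against Veh were within their error. The FPKM of LOC100911238 were 3.90, 4.25 and 1.20 in Veh, 1.45, 1.28 and 0.942 in Veh + CMS and 0.566, 1.43 and 0.189 in PHL + CMS. LOC100911238, a Pomp-like gene on the same chromosome, was high in Veh replicates 1 and 2, where Pomp was low, and lowest in PHL + CMS replicate 3, where Pomp was highest. Since near-identical genes can share reads, the split between these 2 rows is uncertain, and its source was not tested.

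Psmg3 values lay closer together in Veh than in the other groups, a difference in spread that was not tested. With 3 libraries per group an SD is uncertain, and how often other genes show such a contrast was not examined. The SD of Psmg3 was 0.465 FPKM in Veh, 12.5 FPKM in Veh + CMS and 13.5 FPKM in PHL + CMS (n = 3 each), from 293 to 625 reads per library. The SD of Psmb10 was 3.84, 4.73 and 4.92 FPKM in the same order. In both Psmg3 and Psmb10, Veh + CMS replicate 2 was higher than Veh + CMS replicates 1 and 3, and PHL + CMS replicate 1 was lower than PHL + CMS replicates 2 and 3.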
